A study of Mus musculus with 2 samples.

Results

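The Slc25 family is a family of solute carriers, most of them of the mitochondrial inner membrane. Its genes were taken as every row of the expression table whose symbol is Slc25a followed by a number. This gave 44 genes of 23276 in all. They were measured in heart ventricles of mouse embryos of stage E12.5, in a library from embryos with Fendrr knocked out on both alleles by homologous recombination (KO) and a library from wild-type (WT) embryos. Fendrr is a long non-coding RNA gene whose loss the study examined in heart and body wall. Embryos of both genotypes had the C57BL/6 x 129SV background and were made from embryonic stem cells by tetraploid complementation, in which a tetraploid host supplies extraembryonic tissue and the embryo proper derives from the stem cells. Each library held RNA of 4 pooled ventricles, depleted of ribosomal RNA.

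Each genotype had 1 library, sequenced on a run of its own, and the WT run was stopped early and had its bases called by hand. Genotype, run and base calling cannot be told apart, no difference below has a replicate check, and no p-value was computed. The labels could not be checked against the knocked-out gene, since Fendrr had no row and the row of its synonym 1110050K14Rik held 0 for KO and for WT. Cardiomyocyte markers, none of which was at 0, summed to 24128 FPKM in KO and 24307 FPKM in WT over 12 genes, and 6 of the 12 lay above the median log2 ratio of all genes. Single markers differed more than the sum: the troponin gene Tnni3 was at 443 FPKM in KO and 753 FPKM in WT and the myosin light chain gene Myl3 at 1651 FPKM in KO and 2671 FPKM in WT, both at least 1.5-fold lower, while the troponin gene Tnnt2 was at 2174 FPKM in KO and 1524 FPKM in WT. FPKM are fragments per kilobase of transcript and per fixed number of mapped fragments, so levels of different genes can be set side by side. Low values fell on whole-read steps, which put the depth at about 16500000 mapped reads for KO and 13100000 for WT, if values were scaled to all mapped reads.

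Carriers of this family are built from repeats of a pair of membrane helices and move metabolites between cytosol and matrix, mostly by exchange. They carry ADP and ATP, phosphate, di- and tricarboxylates, amino acids, acylcarnitines, cofactors and iron. Cardiac muscle, which makes most of its ATP in mitochondria, is known for large amounts of the ADP/ATP carrier.

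Levels spanned more than 4 orders of magnitude, and a few genes made up most of the family. Slc25a4, Slc25a5 and Slc25a3 together gave 88.4% of the summed FPKM of the family in KO and 89.5% in WT. Of the 44 genes, 2 averaged at least 100 FPKM over the libraries, 10 lay between 10 and 100 FPKM, 20 between 1 and 10 FPKM, and 12 under 1 FPKM. The family summed to 2455 FPKM in KO and 3103 FPKM in WT, a ratio of 0.791. The median ratio was 0.915 over all genes that averaged at least 1 FPKM and were detected in both libraries. Without Slc25a4 the sums were 650.2 FPKM in KO and 814.3 FPKM in WT, a ratio of 0.798. These sums still include Slc25a5, at 288 FPKM in KO and 377 FPKM in WT. They also include Slc25a3, at 76.8 FPKM in KO and 110.6 FPKM in WT. The summed ratios therefore describe the most abundant carriers more than the other members.

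**Figure D1:**
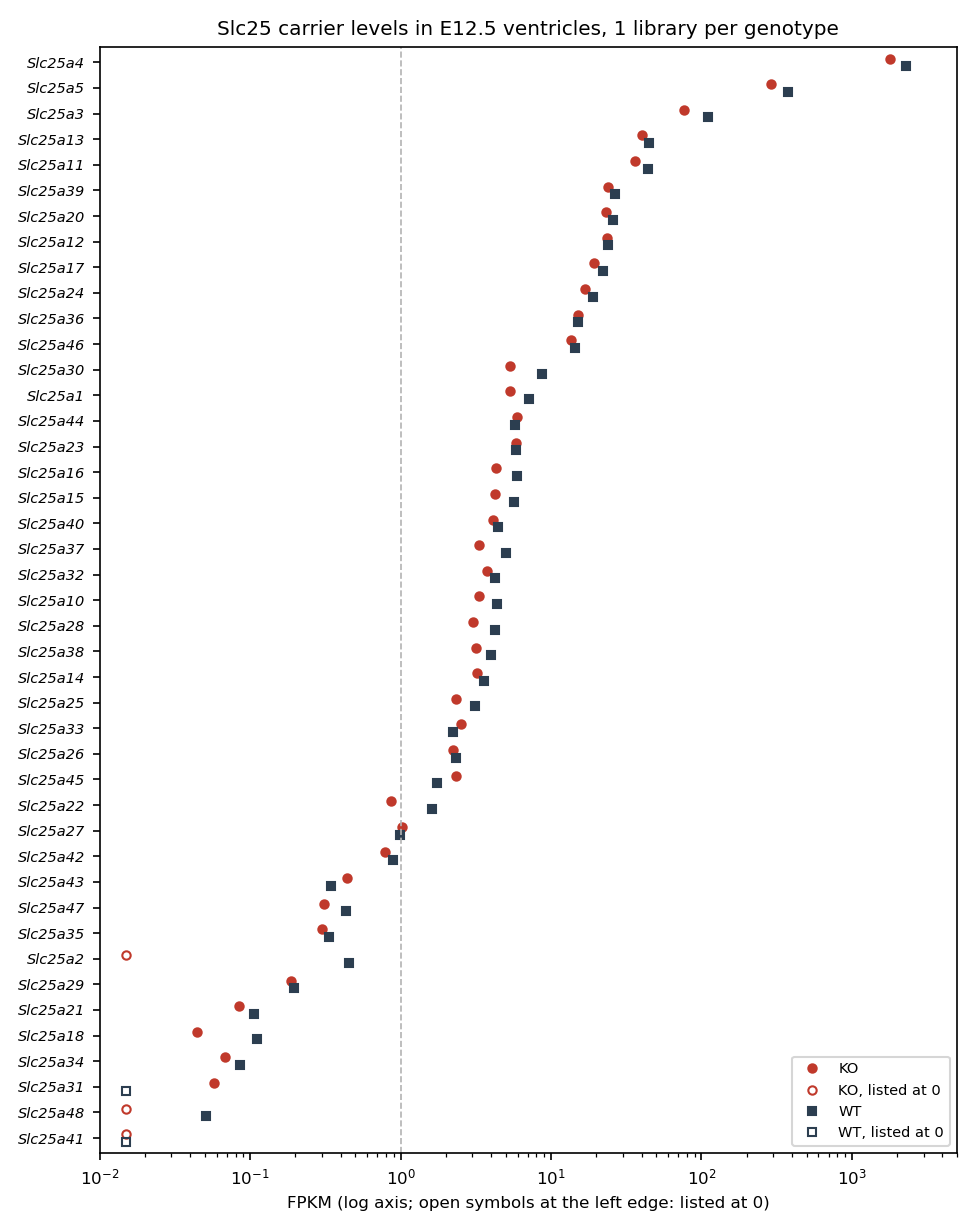
Level of 43 Slc25 genes in FPKM (log axis), ordered by mean, with circles for the KO library and squares for the WT library. Open symbols at the left edge are values listed at 0, the dashed line is 1 FPKM, and the values run from 1805 FPKM in KO and 2289 FPKM in WT for Slc25a4 down to 0 in both for Slc25a41.

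Setting KO beside WT asks how carrier levels differ in ventricles that lack Fendrr. Of the 44 genes, 32 passed the filter of a mean of at least 1 FPKM, and ratios below are log2((KO + 1)/(WT + 1)), a scale that understates differences of low genes. No carrier was at least 2-fold higher and none at least 2-fold lower in KO, against 0.467% and 0.388% of the 11349 genes of the whole table that passed. At 1.5-fold none was higher and 1, Slc25a30, was lower, against 1.54% higher and 3.6% lower over all genes, so the count for the carriers was near the background. The median log2 ratio of the carriers was -0.19, against -0.11 for all genes. Values of 27 of the 32 (84.4%) lay below 0, as did 67.0% of all genes, and 22 of the 32 lay below the all-gene median. All 32 lay within the range of the central 95% of all genes, which ran from -0.64 to 0.49.

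Counting error was set beside each ratio of FPKM (KO over WT, no pseudocount) as an exact 95% interval from the estimated reads. These intervals cover counting error only, not differences between embryos, pools or runs. Of the 32 carriers, 17 had an interval wholly below 1, none had one above 1 and 15 held 1. The same interval, computed for the 10330 tested genes with a coding transcript and reads in both libraries, lay below 1 for 39.7% and above 1 for 12.2%. Against the median ratio of all genes, 0.915, the intervals of 9 lay below it, those of 3 above it and those of 20 held it. Over the 10330 genes, 23.6% lay below that median and 23.5% above it. A gene with more reads has a narrower interval, so these shares also follow expression level and length. The 9 were Slc25a4, Slc25a5, Slc25a3, Slc25a11, Slc25a30, Slc25a16, Slc25a15, Slc25a37 and Slc25a22, and the 3 were Slc25a12, Slc25a36 and Slc25a45. With the median in place of the longest coding transcript as the length, 7 lay below, without Slc25a11 and Slc25a22, and Slc25a12 alone lay above.

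**Figure D2:**
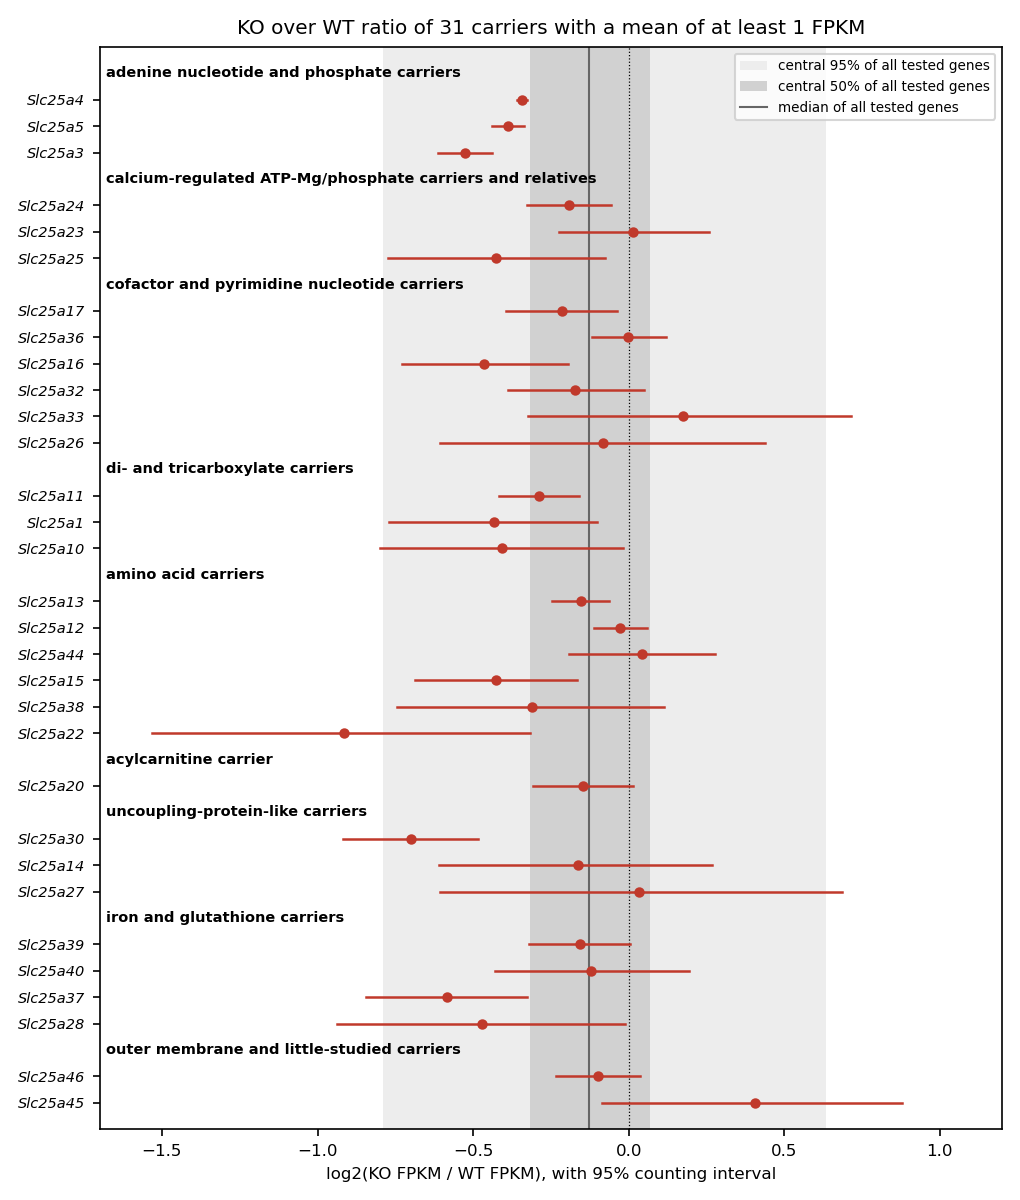
KO over WT ratio of FPKM (log2, no pseudocount) for 31 carriers with a mean of at least 1 FPKM, grouped by role, with bars for the exact 95% counting interval. Grey bands hold the central 95% and 50% of the tested genes detected in both libraries, and the grey line is their median at -0.13. Slc25a30 and Slc25a22 are the lowest points and Slc25a45 the highest.

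The carriers of adenine nucleotides and phosphate, which supply the matrix with ADP and phosphate and export ATP, included the 3 most abundant members of the family, and all 3 were lower in KO. Slc25a4, the ADP/ATP carrier of heart and skeletal muscle, was at 1805 FPKM in KO and 2289 FPKM in WT. Its FPKM ratio was 0.789 (interval 0.780 to 0.798), from about 57244 reads in KO and 57672 in WT. Slc25a5, the ADP/ATP carrier of proliferating and many other cells, was at 288 FPKM in KO and 377 FPKM in WT, a ratio of 0.764 (0.737 to 0.792). Slc25a3, the phosphate carrier, which also brings copper into the matrix, was at 76.8 FPKM in KO and 110.6 FPKM in WT, a ratio of 0.694 (0.654 to 0.737). On the log2(FPKM + 1) scale these ratios were -0.34, -0.39 and -0.52. The 525 genes that averaged at least 100 FPKM, as Slc25a4 and Slc25a5 did, had a median of -0.18 on that scale. Of these genes, 95% lay between -0.76 and 0.52. Slc25a3 averaged 93.7 FPKM, and the 2229 genes from 20 to 100 FPKM had a median of -0.15, with 95% between -0.64 and 0.42. Slc25a31, the ADP/ATP carrier of male germ cells, was at 0.0576 FPKM in KO and listed at 0 in WT.

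Slc25a4 outweighed Slc25a5 to about the same degree in both libraries. Its share of the summed FPKM of the 3 ADP/ATP carriers was 86.2% in KO and 85.9% in WT, and that of Slc25a5 was 13.8% in KO and 14.1% in WT. The ratio of Slc25a4 to Slc25a5 was 6.26 in KO and 6.07 in WT, a log2 difference of 0.045 with a counting interval of -0.0088 to 0.0997. A share within a library does not depend on the scaling between libraries. The transcripts are distinct enough for reads of 100 bases: the longest identical run between Slc25a4 and Slc25a5 was 20 bases. Slc25a5 is less certain than Slc25a4, since 137 of its 1141 windows of 100 bases (12.0%) occur unchanged in transcripts of other annotated genes, among them the processed pseudogenes Gm5560 and Gm5529.

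The start regions of these 3 genes are shown because they account for most of the family's transcripts. Each runs from 250 bases before to 50 bases after the annotated start, 5′ to 3′ on the strand of the gene (RefSeq, GRCm38.p6). Slc25a4 lies at chr8:46211013-46211312 (minus strand), Slc25a5 at chrX:36795347-36795646 (plus strand) and Slc25a3 at chr10:91123918-91124217 (minus strand). Capitals mark TATAA, the core of the TATA box, in the ADP/ATP carrier genes, and TGCGCA, the half-site of the palindrome bound by nuclear respiratory factor 1, a regulator of mitochondrial genes, in Slc25a3.
Slc25a4: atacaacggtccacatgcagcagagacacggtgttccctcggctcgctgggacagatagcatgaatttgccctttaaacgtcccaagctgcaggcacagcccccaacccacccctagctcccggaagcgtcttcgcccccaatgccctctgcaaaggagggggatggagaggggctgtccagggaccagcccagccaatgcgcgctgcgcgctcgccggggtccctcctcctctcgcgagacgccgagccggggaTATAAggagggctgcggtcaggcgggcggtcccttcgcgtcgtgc
Slc25a5: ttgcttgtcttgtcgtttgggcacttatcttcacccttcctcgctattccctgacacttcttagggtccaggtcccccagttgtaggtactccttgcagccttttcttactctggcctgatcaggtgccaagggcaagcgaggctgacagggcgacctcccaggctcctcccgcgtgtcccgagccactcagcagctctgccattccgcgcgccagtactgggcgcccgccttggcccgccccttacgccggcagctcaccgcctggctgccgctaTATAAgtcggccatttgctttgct
Slc25a3: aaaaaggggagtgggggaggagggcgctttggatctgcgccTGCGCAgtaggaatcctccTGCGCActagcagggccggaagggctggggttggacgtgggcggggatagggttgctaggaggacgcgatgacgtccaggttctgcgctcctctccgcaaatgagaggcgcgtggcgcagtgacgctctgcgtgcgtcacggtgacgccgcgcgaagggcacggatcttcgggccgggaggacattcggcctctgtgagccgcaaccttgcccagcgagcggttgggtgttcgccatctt
TATAA begins 5 bases after the first transcribed base of Slc25a4 and 26 bases after that of Slc25a5, both on the sense strand. Both strands were searched, and 34 of the 44 genes matched an entry. TATAA occurred in 5 of the 34 (14.7%) and in 28.0% of all 27025 genes with an entry. TGCGCA, which reads the same on both strands, occurred at 2 places in Slc25a3, beginning 209 and 190 bases before the start. It occurred in 4 of the 34 (11.8%), the others being Slc25a21, Slc25a31 and Slc25a36, and in 8.79% of all genes. CACGTG, the E-box bound by Myc and USF factors, occurred in 7 of the 34 (20.6%) and in 8.09% of all genes. TCAAGGTCA, the element bound by oestrogen-related receptors, occurred in none of the 34 and in 0.466% of all genes. The motifs were chosen after the printed sequences had been read, and a match describes letters in a window, not a bound site.

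Carriers of di- and tricarboxylates, which link the citric acid cycle to the cytosol, were all lower in KO. Slc25a11, the oxoglutarate carrier that works in the malate-aspartate shuttle, was at 36.0 FPKM in KO and 44.0 FPKM in WT, a ratio of 0.819 (0.749 to 0.895). Slc25a1, the citrate carrier that feeds fatty acid and sterol synthesis, was at 5.33 FPKM in KO and 7.20 FPKM in WT. Slc25a10, the dicarboxylate carrier, was at 3.30 FPKM in KO and 4.37 FPKM in WT. The intervals of Slc25a1 (0.586 to 0.932) and Slc25a10 (0.575 to 0.987) held the ratio of 0.915 of all genes. Slc25a21, the oxodicarboxylate carrier, was under the filter, at 0.0842 FPKM in KO and 0.106 FPKM in WT, about 4 reads in each.

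Among the amino acid carriers, the aspartate/glutamate carriers were abundant and close between the libraries. These calcium-regulated carriers drive the malate-aspartate shuttle. Slc25a13 (citrin) was at 40.0 FPKM in KO and 44.5 FPKM in WT, and Slc25a12 (aralar) at 23.5 FPKM in KO and 24.0 FPKM in WT. Slc25a13 had a ratio of 0.899 (0.844 to 0.958), an interval below 1 that held the median ratio of all genes. Slc25a12 had a ratio of 0.982 (0.925 to 1.04), above the median ratio of all genes. Slc25a12 made up 37.0% of the pair's FPKM in KO and 35.0% in WT, a log2 difference of the 2 ratios of 0.13 with a counting interval of 0.0026 to 0.25. Although Slc25a12 is best known from heart and skeletal muscle and brain, Slc25a13 was the more abundant of the pair in both libraries per length.

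The other amino acid carriers were low. Slc25a22, a glutamate carrier, was at 0.860 FPKM in KO and 1.62 FPKM in WT, the lowest FPKM ratio of the 32 at 0.531, but it rested on about 40 reads in KO and 60 in WT (interval 0.346 to 0.803). Its paralogue Slc25a18 was at 0.0445 FPKM in KO and 0.112 FPKM in WT. For Slc25a18 to Slc25a22 the log2 difference was -0.42, and its wide counting interval (-3.40 to 2.57) included no difference. Slc25a15, the ornithine carrier of the urea cycle, was at 4.24 FPKM in KO and 5.71 FPKM in WT, a ratio of 0.743 (0.622 to 0.892). The related Slc25a2 was listed at 0 in KO and at 0.454 FPKM in WT, about 8 reads. Slc25a38, which brings glycine into the matrix for haem synthesis, was at 3.19 FPKM in KO and 3.96 FPKM in WT. Slc25a44, a branched-chain amino acid carrier, was at 5.94 FPKM in KO and 5.76 FPKM in WT, and the basic amino acid carrier Slc25a29 was at 0.186 FPKM in KO and 0.195 FPKM in WT.

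Slc25a20, the carnitine/acylcarnitine carrier through which long-chain fatty acids reach oxidation, was at 23.2 FPKM in KO and 25.7 FPKM in WT. Its ratio of 0.903 (0.808 to 1.01) held both 1 and the median ratio of all genes.

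Among carriers related to the uncoupling proteins, Slc25a30 stood lowest. Slc25a30, first described as a kidney carrier, was at 5.35 FPKM in KO and 8.69 FPKM in WT. Its log2 ratio of -0.61 was the lowest of the 32 carriers, at percentile 2.99 of all genes, and its FPKM ratio was 0.615 (0.530 to 0.714) from about 316 reads in KO and 408 in WT. Slc25a14 was at 3.21 FPKM in KO and 3.59 FPKM in WT, and Slc25a27, known from the nervous system, at 1.02 FPKM in KO and 0.995 FPKM in WT. The share of Slc25a30 in the summed FPKM of these 3 genes was thus 55.9% in KO and 65.5% in WT, a difference of -9.60 percentage points. The ratio of Slc25a14 to Slc25a30 was 0.5996 in KO and 0.413 in WT, a log2 difference of 0.54 with a counting interval of 0.065 to 1.01. That of Slc25a30 to Slc25a27 differed by -0.73 on the log2 scale (interval -1.38 to -0.084). For Slc25a14 to Slc25a27 the log2 difference was -0.20, and its interval (-0.94 to 0.55) included no difference. No identical run between these 3 transcripts exceeded 20 bases.

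**Figure D3:**
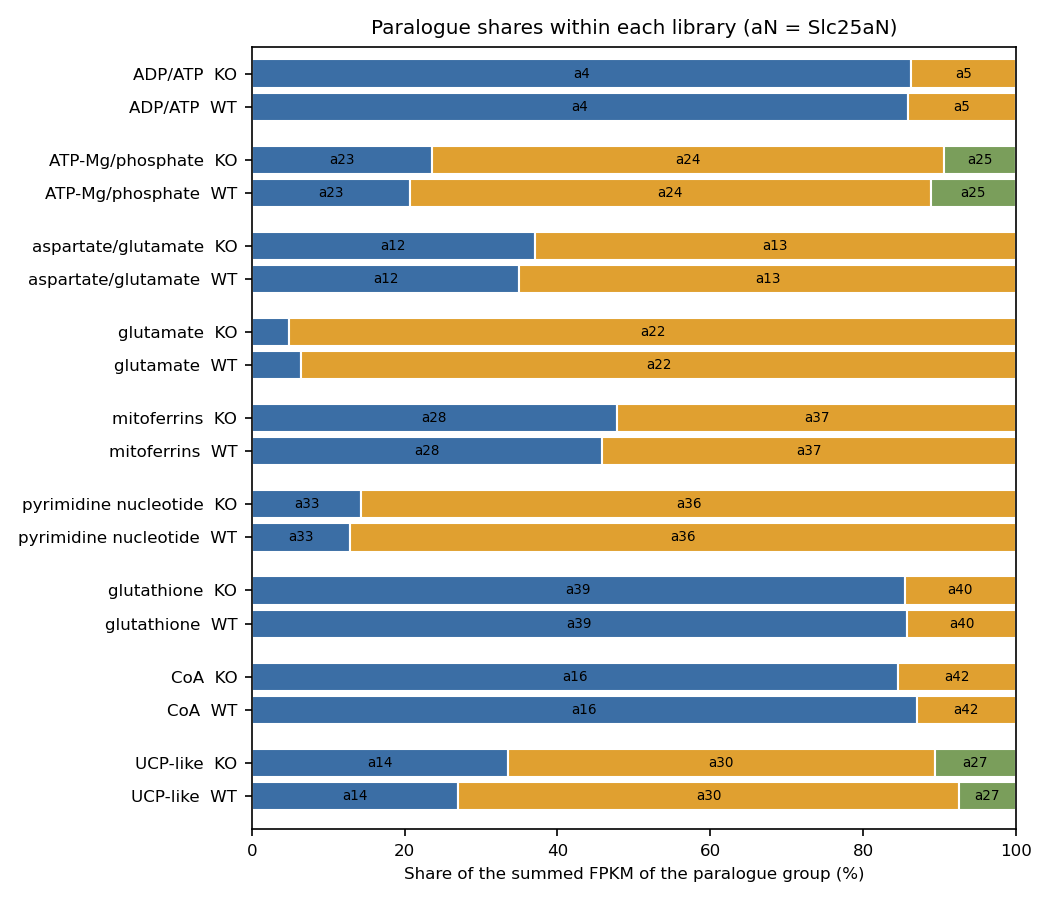
Share of each paralogue in the summed FPKM of its group (%), with the KO bar above the WT bar. Slc25a4 holds 86.2% of the ADP/ATP group in KO and 85.9% in WT, and the widest difference among the groups drawn is that of Slc25a30, at 55.9% in KO and 65.5% in WT; the pair of Slc25a15 and Slc25a2 is left out because Slc25a2 was listed at 0 in KO, and Slc25a31 and Slc25a41 are too low to be seen.

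Iron carriers were lower in KO and glutathione carriers were close between libraries. Slc25a37 (mitoferrin-1), which imports iron for haem in red cell precursors, was at 3.33 FPKM in KO and 4.99 FPKM in WT, a ratio of 0.667 (0.557 to 0.797). Slc25a28 (mitoferrin-2), the form found in many tissues, was at 3.05 FPKM in KO and 4.23 FPKM in WT, a ratio of 0.721 (0.522 to 0.991). It rested on about 77 reads in KO and 85 in WT, and its interval held the median ratio of all genes, while that of Slc25a37 lay below it. Slc25a37 made up 52.2% of the pair in KO and 54.1% in WT. For Slc25a28 to Slc25a37 the log2 difference was 0.11, and its counting interval (-0.40 to 0.62) included no difference. Red cell genes were present in both libraries: the 11 erythroid markers, none at 0, summed to 5567 FPKM in KO and 4993 FPKM in WT, 4 of the 8 that passed the filter lay above the all-gene median, and Alas2, the haem synthesis enzyme of red cells, was at 12.8 FPKM in KO and 18.3 FPKM in WT. Their part in the values of Slc25a37 was not tested, and fewer cells of a type and less RNA per cell cannot be told apart in such samples. Slc25a39, which imports glutathione, was at 24.0 FPKM in KO and 26.8 FPKM in WT, and its paralogue Slc25a40 at 4.09 FPKM in KO and 4.45 FPKM in WT. Slc25a39 made up 85.5% of that pair in KO and 85.8% in WT. For Slc25a39 to Slc25a40 the log2 difference was -0.035, and its counting interval (-0.38 to 0.31) included no difference.

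Carriers of ATP-Mg and phosphate, which are gated by calcium and adjust the adenine nucleotide content of the matrix, had ratios on both sides of 1. Slc25a24 led the group, at 16.8 FPKM in KO and 19.2 FPKM in WT, a ratio of 0.875 (0.797 to 0.961). Slc25a25 was at 2.34 FPKM in KO and 3.14 FPKM in WT, a ratio of 0.744 (0.585 to 0.948). Both intervals lay below 1 and held the median ratio of all genes. Slc25a23 was at 5.88 FPKM in KO and 5.82 FPKM in WT, a ratio of 1.01 (0.856 to 1.2). Their shares were 67.1% (Slc25a24), 23.5% (Slc25a23) and 9.35% (Slc25a25) in KO, against 68.1% (Slc25a24), 20.7% (Slc25a23) and 11.2% (Slc25a25) in WT. The ratio of Slc25a23 to Slc25a25 was 2.52 in KO and 1.85 in WT, a log2 difference of 0.44 (counting interval 0.029 to 0.85). For Slc25a23 to Slc25a24 the log2 difference was 0.21 (-0.063 to 0.48), and for Slc25a24 to Slc25a25 it was 0.23 (-0.13 to 0.60). Both of these intervals included no difference. Slc25a41, a relative without the calcium-binding part, was listed at 0 in both.

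Carriers of cofactors and pyrimidine nucleotides had members on both sides of the median of all genes. Slc25a36, which carries pyrimidine nucleotides, was at 15.1 FPKM in both KO and WT, a ratio of 1.00 (0.921 to 1.09). Its paralogue Slc25a33 was at 2.53 FPKM in KO and 2.24 FPKM in WT. For Slc25a33 to Slc25a36 the log2 difference was 0.17, and its counting interval (-0.34 to 0.69) included no difference. Slc25a16, linked to coenzyme A transport, was at 4.34 FPKM in KO and 5.98 FPKM in WT, a ratio of 0.725 (0.604 to 0.874). Slc25a42, the other coenzyme A carrier, was under the filter, at 0.789 FPKM in KO and 0.893 FPKM in WT. For Slc25a16 to Slc25a42 the log2 difference was -0.29, and its counting interval (-0.98 to 0.40) included no difference. Slc25a17, which serves peroxisomes rather than mitochondria, was at 19.2 FPKM in KO and 22.3 FPKM in WT. Slc25a32, which transports folate or FAD, was at 3.78 FPKM in KO and 4.26 FPKM in WT, and Slc25a26, which imports S-adenosylmethionine, was at 2.22 FPKM in KO and 2.35 FPKM in WT. The intervals of Slc25a17, Slc25a26, Slc25a32 and Slc25a33 held the median ratio of all genes.

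Slc25a46, an outer membrane protein that acts in mitochondrial shape, was at 13.5 FPKM in KO and 14.5 FPKM in WT. Slc25a45, whose role is less well known, was at 2.32 FPKM in KO and 1.75 FPKM in WT, the highest log2 ratio of the 32 at 0.27, from about 99 reads in KO and 60 in WT (FPKM ratio 1.33, interval 0.942 to 1.84). Slc25a35, Slc25a43 and Slc25a47 lay between 0.2996 and 0.438 FPKM in KO and between 0.335 and 0.435 FPKM in WT. Slc25a34 was at 0.0680 FPKM in KO and 0.0855 FPKM in WT, about 3 reads in each, and Slc25a48 was listed at 0 in KO and at 0.0510 FPKM in WT. For Slc25a34 to its paralogue Slc25a35 the log2 difference was -0.17, and its wide counting interval (-2.68 to 2.34) included no difference. Of the 12 genes under the filter, 1 was listed at 0 in both libraries, 2 in KO alone and 1 in WT alone. No fold is given against a value listed at 0, which can be a failed estimate.

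The genes that act around the carriers were mostly below the all-gene median as well, none of them 2-fold apart. The median of all genes itself was lower at higher levels: -0.063 from 1 to 5 FPKM and -0.18 at 100 FPKM or more. The lists were not matched for level. Of 11 genes for outer membrane channels and for the import of carriers, 10 lay below that median and the list's median log2 ratio was -0.26, with 1 at least 1.5-fold lower. Vdac2, a pore of the outer membrane, was at 298 FPKM in KO and 372 FPKM in WT, and Vdac3 at 218 FPKM in KO and 249.8 FPKM in WT. Timm9, a chaperone that guides carriers across the intermembrane space, was the gene past 1.5-fold, at 11.4 FPKM in KO and 20.4 FPKM in WT, a log2 ratio of -0.79. Tomm22, a receptor of the outer membrane import pore, was at 49.9 FPKM in KO and 74.3 FPKM in WT.

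Of 6 shuttle enzymes of the malate-aspartate and glycerol phosphate shuttles, 5 lay below the all-gene median, with a list median of -0.29 and none at 1.5-fold. Mdh1, the cytosolic malate dehydrogenase, was at 255.7 FPKM in KO and 367 FPKM in WT, Mdh2, its matrix counterpart, at 71.7 FPKM in KO and 78.1 FPKM in WT, and Gpd1l at 3.46 FPKM in KO and 5.25 FPKM in WT. Of 6 genes of the carnitine shuttle, 4 lay below, with a list median of -0.25 and none at 1.5-fold. Cpt1b, the muscle carnitine palmitoyltransferase, was at 39.7 FPKM in KO and 54.5 FPKM in WT, while Cpt2, its partner on the matrix side, was at 10.2 FPKM in KO and 11.9 FPKM in WT. Slc22a5, the carnitine transporter of the cell surface, was at 1.77 FPKM in KO and 2.77 FPKM in WT.

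Haem and iron-sulphur genes, whose pathways use the iron and glycine that carriers import, had the lowest list median of those compared, at -0.31. Of the 15, 14 lay below the all-gene median and 1 was at least 1.5-fold lower. Nfs1, the cysteine desulphurase of iron-sulphur synthesis, was at 9.86 FPKM in KO and 14.8 FPKM in WT, the scaffold gene Iscu at 34.6 FPKM in KO and 42.6 FPKM in WT, and the glutaredoxin gene Glrx5 at 30.6 FPKM in KO and 40.4 FPKM in WT. Whether these lists differ from other genes was not tested.

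**Figure D4:**
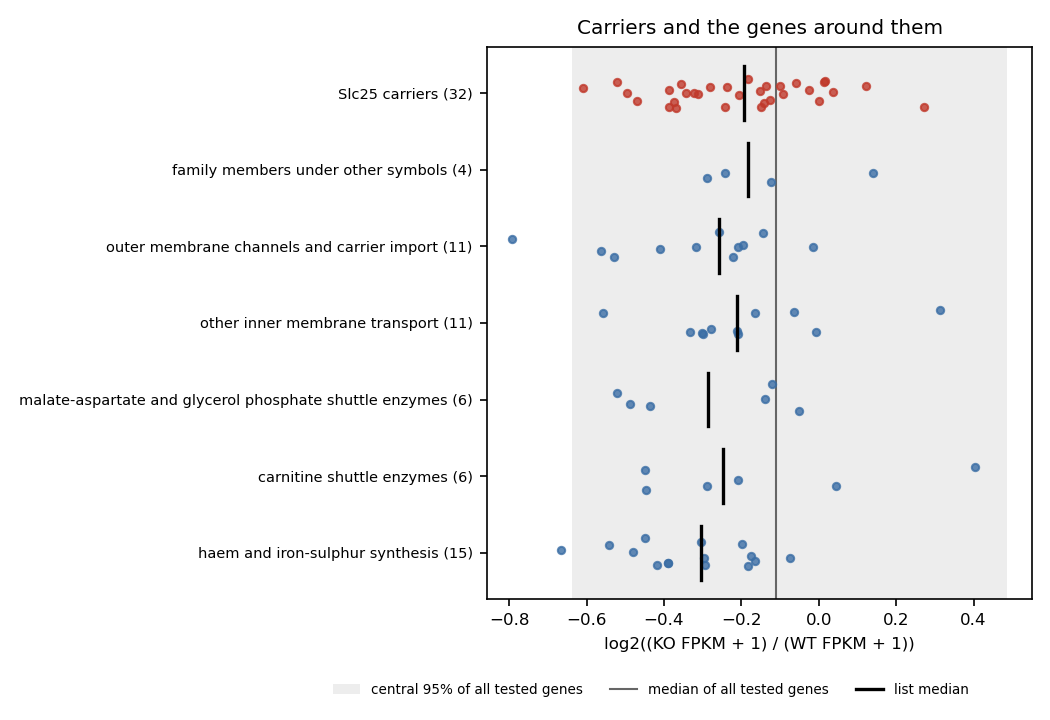
log2((KO FPKM + 1)/(WT FPKM + 1)) of each gene with a mean of at least 1 FPKM, for the 32 Slc25 carriers and for lists of genes around them (number of genes in brackets), with a black tick for each list's median. The grey band is the central 95% of all 11349 genes and the grey line their median at -0.11; list medians lie between -0.31 and -0.18.

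Summed levels of the markers of 5 other cell types were higher in KO. The 8 fibroblast and cushion mesenchyme markers, none at 0, summed to 560 FPKM in KO and 466 FPKM in WT, and 7 of them lay above the all-gene median. The 8 endothelial and endocardial markers, none at 0, summed to 222 FPKM in KO and 217 FPKM in WT, and 7 of them lay above that median. The 6 epicardial markers, none at 0, summed to 86.8 FPKM in KO and 76.9 FPKM in WT, with 4 above it. The 7 macrophage markers with a row, none at 0, summed to 15.2 FPKM in KO and 10.7 FPKM in WT, and 5 of the 6 that passed the filter lay above it. The 6 liver and yolk sac markers summed to 21.4 FPKM in KO and 0.685 FPKM in WT, both that passed the filter lay above it, and most of the KO sum was Afp (alpha-fetoprotein), at 16.6 FPKM in KO and 0.110 FPKM in WT, with Alb at 0 in both and Apoa1 and Fgb at 0 in WT. The part of these cells in the values of the carriers was not tested.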

How the data were processed

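RNA of 1 pool per genotype was sequenced as a strand-specific library, 100 bases from 1 end. The authors deposited 1 FPKM value per gene symbol and library, for which Cufflinks 2.0.2, TopHat2 2.0.6 and Bowtie2 2.0.2 were run on mm9, per the submitters' processing notes; the annotation and options are not given in the sources used here. Values were used as deposited. Ratios were log2((KO + 1)/(WT + 1)) for genes that averaged at least 1 FPKM, and genes were counted past 2-fold and 1.5-fold. With 1 library per genotype, no test was possible.

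Depth was estimated from low values. Of 2213 genes under 0.3 FPKM, 69.1% had KO over WT values that, divided by 0.796, came within 0.1% of a fraction of integers no larger than 10; the median over other divisors was 1.08%. For 326 of them with 1 GENCODE vM21 transcript, FPKM times length was taken as a multiple of the value of 1 read; 73.6% in KO and 74.5% in WT lay within 0.15 of a whole number, against 30.0% if spread evenly. Reads of a carrier are its FPKM times the length of its longest coding transcript over that value, so they are approximate, and PCR copies are not independent. Intervals for ratios are exact binomial (Clopper-Pearson), and those for differences of paralogue ratios are normal approximations on the log2 scale. In all, 14 of the 44 genes share a window of 100 bases with another annotated gene and none with another carrier. The largest shares were 19.8% of windows for Slc25a35, 12.0% for Slc25a5, 10.2% for Slc25a33, 7.88% for Slc25a36, 7.37% for Slc25a40 and 6.94% for Slc25a37. Values of these genes are less certain for that reason. Sharing was searched among annotated transcripts only.

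Members and lists were chosen with earlier results of these data known. Every carrier is named except 1, which is counted but not reported here by name; from each list, the 2 genes of highest mean and the 2 of furthest log2 ratio were chosen, 1 of which is likewise not reported, with Afp, Alas2, Alb, Myl3, Tnni3, Tnnt2, Apoa1, Fgb, Ucp2 and Mcart1 chosen after their values were seen. A protein comparison was planned but not run. Alternatives were pseudocounts of 0.1 and 5, no filter, a minimum mean of 5 FPKM, median centring, upper-quartile scaling and quantile normalization. Computations used Python 3.11.15, numpy 2.4.6, pandas 2.3.3, scipy 1.17.1 and matplotlib 3.10.9, and were checked on simulated data.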

Additional observations from a re-analysis of the deposited data

How the results depend on the processing

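No paired analysis was possible because there was 1 library for each genotype, and none could be left out. No carrier was 2-fold apart, or 1.5-fold higher, under any of the 7 alternatives. Carriers at least 1.5-fold lower numbered 2 at a pseudocount of 0.1, and 0 at a pseudocount of 5 or with median centring, upper-quartile scaling or quantile normalization, against 1. The median of the carriers, -0.19 as deposited, was -0.073 with median centring, -0.064 with upper-quartile scaling and -0.070 with quantile normalization; that of all genes was 0, 0.0081 and -0.0071 in the same order, and 0 without a filter. Those 3 scalings moved the median of all genes by over 0.1, and under each of them 22 of 32 carriers lay below 0, against 27 as deposited. Relative to all genes the carriers' median lay between -0.14 and -0.060 under the 7 alternatives. Single log2 ratios moved by at least 0.1 in 79 of 210 cases and shares by at least 1 percentage point in 11 of 48, among them Slc25a22, whose share difference of 1.53 points was -6.18 with 1 FPKM added to each gene. The use of the median transcript length, chosen after seeing the data, left 14 carriers with a counting interval below 1, against 17.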

Other observations

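Of 7 carriers of the family that are listed under other symbols, 4 passed the filter. Mtch1, an outer membrane relative of the carriers, was at 46.2 FPKM in KO and 56.6 FPKM in WT, and Mtch2, which inserts proteins into that membrane, at 44.1 FPKM in KO and 52.3 FPKM in WT. Ucp2, an uncoupling protein relative, was at 12.52 FPKM in KO and 11.3 FPKM in WT, and Mcart1, the NAD carrier now named Slc25a51, at 8.01 FPKM in KO and 8.82 FPKM in WT. The median log2 ratio of these 4 was -0.18. Ucp1, the uncoupling protein of brown fat, was listed at 0 in both libraries, and Ucp3 and Mcart6 had means under 1 FPKM.

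Other transport genes of the inner membrane lay near the carriers. Of 11 that passed the filter, 8 lay below the all-gene median, with a median log2 ratio of -0.21 and none past 1.5-fold. Mpc2, a subunit of the pyruvate carrier, was at 63.4 FPKM in KO and 66.4 FPKM in WT, and Ghitm at 52.9 FPKM in KO and 59.4 FPKM in WT. Sfxn2, a sideroflexin, was at 1.46 FPKM in KO and 2.62 FPKM in WT, and Letm1, a cation exchanger, at 7.13 FPKM in KO and 9.24 FPKM in WT.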
